A study of Mus musculus with 10 samples.

Results

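The potassium channel genes described here are the genes of the mouse aorta whose symbol begins with Kcn, followed by the letters of a subfamily, a number and at most 1 further letter. The rule took 93 of the 55453 gene symbols in the count table, in 20 subfamilies, and it used no measured value. The symbols cover pore-forming subunits and the accessory subunits that share their naming system. RNA was sequenced from whole aortae of 10 male C57BL/6 mice, an inbred strain, and the labels name no transgene, deletion or treatment. The young group held 5 mice of 14.5 weeks and the old group 5 mice of 92.5 weeks, as the labels give the ages. The labels state that fat around the vessel was removed before RNA was taken, though adipocyte markers were found in every library, and each library came from 1 mouse, so that the 5 values of a group are biological replicates. The comparison asks which genes differ with age in the arterial wall, and the data hold all cell types of that wall together.

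Potassium channels let potassium ions leave the cell and so hold the membrane of vascular smooth muscle at a negative voltage. When they open, voltage-gated calcium channels close and the muscle relaxes. When fewer of them open, the membrane depolarizes and the muscle contracts. Some of the pores open with voltage, others with calcium or sodium inside the cell, and inward rectifiers and two-pore-domain channels pass current near rest. Accessory subunits bind these pores and change their gating or their way to the membrane.

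Library totals on genes ranged from 19640401 to 22886153 counts. The mitochondrial share of the counts was 11.0% in old mouse 2 and 4.50 to 6.51% in the other 9 libraries, and its part in the results was not tested. Markers of smooth muscle had a summed level of 796386 to 945758 normalized counts in the young and 736475 to 900014 in the old aortae, so that the tissue label was borne out by its main cell type. Normalized counts are counts divided by a size factor of the library. In such bulk samples, fewer cells of a type and less RNA per cell cannot be told apart.

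Of the 93 potassium channel genes, 43 passed the low-count filter and were tested, which made up 18 of the 20 subfamilies. Together the 93 genes took a CPM, their counts scaled to a common library total, of 1185 to 1305 in the young and 1191 to 1311 in the old libraries, and the groups overlapped. Voltage-gated pores (*Kcna*, *Kcnb*, *Kcnc*, *Kcnd*, *Kcnh* and *Kcnq*) passed with 15 of 30 genes, and silent partners of voltage-gated pores (*Kcnf*, *Kcng*, *Kcns* and *Kcnv*) with 3 of 10. Calcium- or sodium-activated pores (*Kcnma*, *Kcnn*, *Kcnt* and *Kcnu*) passed with 6 of 8, inward rectifiers (*Kcnj*) with 5 of 15 and two-pore-domain pores (*Kcnk*) with 6 of 14. Accessory subunits (*Kcnab*, *Kcne*, *Kcnip* and *Kcnmb*) passed with 8 of 16. All 3 *Kcnab* genes and both *Kcnt* genes were tested, and no gene of *Kcnu* or *Kcnv* was.

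The 50 genes under the filter had 0 to 111 counts over all 10 libraries together. The filter works on counts per library and not on this total, and the smallest total of a tested gene was 102. No library held a count of *Kcna7*, *Kcna10*, *Kcnb2*, *Kcne1*, *Kcnh6*, *Kcnj1*, *Kcnj6*, *Kcnk16*, *Kcnk18* or *Kcnv1*. For these 10 genes, a count of 0 allows up to 3 counts in a library, which is 0.131 to 0.153 CPM, a bound that covers counting error alone. Another 21 genes had 1 to 9 counts over all libraries together, namely *Kcna4*, *Kcnd2*, *Kcne2*, *Kcnh4*, *Kcnh5*, *Kcnh7*, *Kcnip1*, *Kcnj3*, *Kcnj5*, *Kcnj9*, *Kcnj13*, *Kcnj16*, *Kcnk7*, *Kcnk9*, *Kcnk12*, *Kcnk15*, *Kcnmb2*, *Kcnmb3*, *Kcns1*, *Kcns2* and *Kcnu1*. The other 19 had 11 to 111 counts in all. Among them were *Kcna3*, *Kcnc1*, *Kcnc2*, *Kcne1l*, *Kcng1*, *Kcng2*, *Kcng3*, *Kcnh8*, *Kcnip2*, *Kcnj4*, *Kcnj10*, *Kcnj14*, *Kcnk4*, *Kcnk10*, *Kcnmb4*, *Kcnn2* and *Kcnv2*, and *Kcnj10*, a glial inward rectifier, had the largest total. In 0 of these 19 did the values of young and old mice fail to overlap, against 2.55% of all genes under the filter with 10 or more counts.

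Levels between genes were compared as normalized counts per kilobase of exonic length. This length joins the exons of all annotated transcripts of a gene, so that the order of genes depends on it. It was 16.976 kilobases for *Kcnma1*, 4.191 for *Kcnmb1* and 2.548 for *Kcnj8*. In counts not divided by length, *Kcnma1* stood above *Kcnj8*, with means of 2324 against 1253 in young and 2313 against 1528 in old mice. *Kcnmb1*, the accessory subunit of the large-conductance calcium-activated channel in smooth muscle, had the highest level, with a mean of 1607 per kilobase over the 10 mice and a range of 1344 to 1825. Its range did not overlap that of any other potassium channel gene. Below it came *Kcnh2*, a voltage-gated pore of the ether-a-go-go family known from cardiac repolarization, at 636 per kilobase and *Kcnj8*, the ATP-sensitive pore of vascular smooth muscle, at 546. *Kcnab1*, a cytoplasmic subunit of *Kcna* channels, stood at 507. *Kcne4*, a single-span partner of *Kcnq* and *Kcna* pores, had 334 per kilobase, *Kcnc4*, a fast pore that opens at strong depolarization, had 162, and *Kcnma1*, the pore that *Kcnmb1* binds, had 137. Over the 10 mice the ranges of *Kcnh2*, *Kcnj8* and *Kcnab1* overlapped, and so did that of *Kcne4* with *Kcnc4* and that of *Kcnc4* with *Kcnma1*, so that their order is not set beyond the spread between mice. *Kcne4* reached 399 at most, below the lowest value of *Kcnab1*, 428. The 8 highest genes held 80.3% of the summed level per kilobase of the 43 tested genes. The lowest tested gene was *Kcnh3*, another ether-a-go-go pore, at 2.21 per kilobase.

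**Figure D1:**
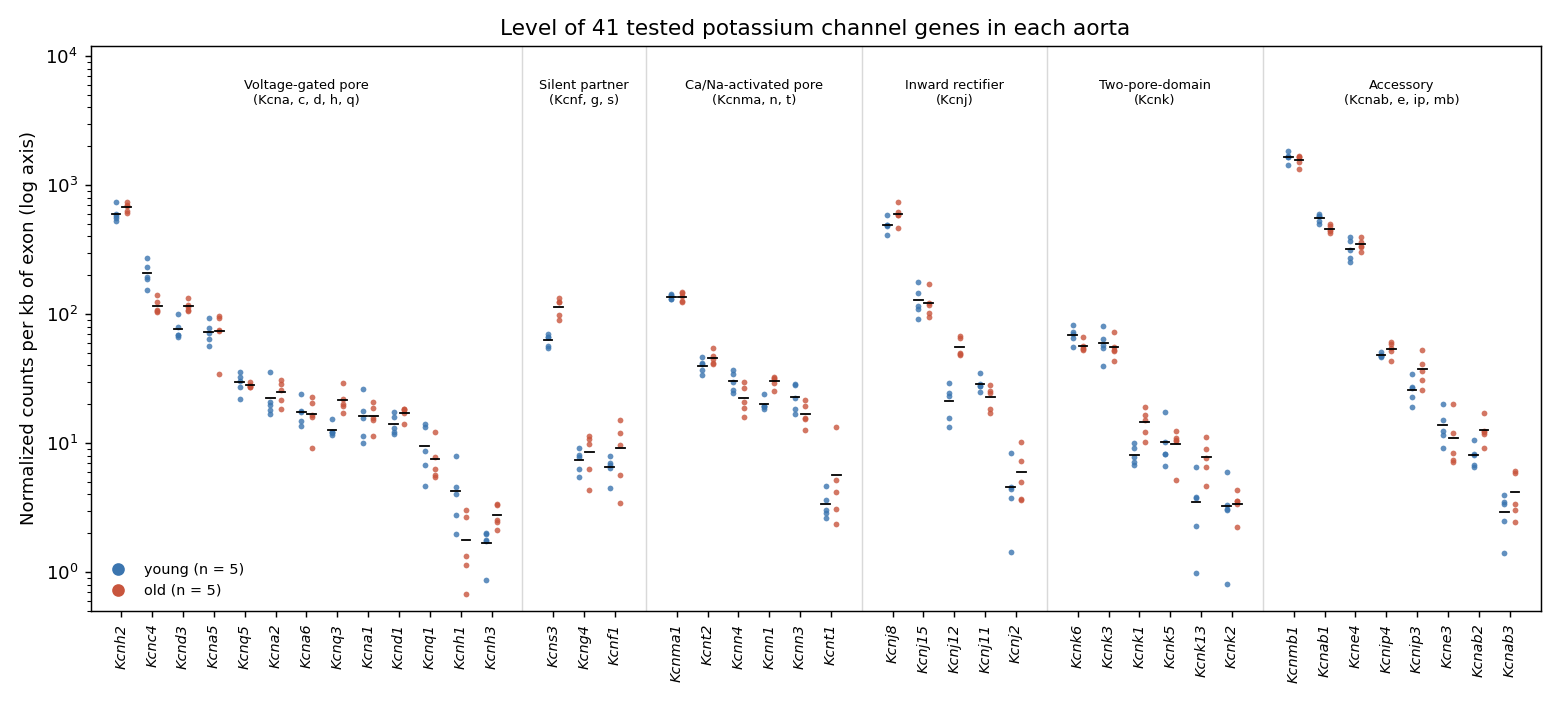
Level of 41 tested potassium channel genes in each aorta as normalized counts per kilobase of exon on a log axis, with 5 young mice in blue, 5 old mice in red and the group mean as a bar, grouped by role. *Kcnmb1* stands highest at a mean of 1607 over the 10 mice, *Kcnh3* lowest at 2.21, and young and old points stand apart for genes such as *Kcns3* and *Kcnj12*.

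Between the ages, 9 of the 43 tested potassium channel genes passed the test (edgeR's quasi-likelihood test, Benjamini-Hochberg adjusted p below 0.05 over all 14614 tested genes), which is 20.9%, against 11.5% of all tested genes. Of these, 6 rose in old aortae (*Kcnj12*, *Kcns3*, *Kcnk1*, *Kcnq3*, *Kcnn1* and *Kcnd3*), against a background of 6.48%, and 3 fell (among them *Kcnc4* and *Kcnab1*), against 4.99%. With upper-quartile scaling the split was 7 higher and 2 lower. At an unadjusted p below 0.05 there were 18 of the 43, against 26.7% of all tested genes. The median log2 fold change was 0.12 for the 43 genes and 0.0034 for all tested genes, and the median of its size was 0.31 and 0.14. Young and old values did not overlap for 9 of the 43, against 9.92% of all tested genes. These were *Kcnh3* and 8 of the 9 called genes, where the share among all called genes was 71.7%. Genes both called higher and without overlap were 6 of the 43, against 4.65% of all tested genes. DESeq2 called 8 higher and 4 lower, against 7.24% and 6.33% of the 17134 genes to which it gave an adjusted p. That set is larger than the 14614 genes of edgeR, so that the 8 and 4 are not out of the 43. Over the 14614 genes, limma-voom called 6 higher and 3 lower, against 6.53% and 5.07%.

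**Figure D2:**
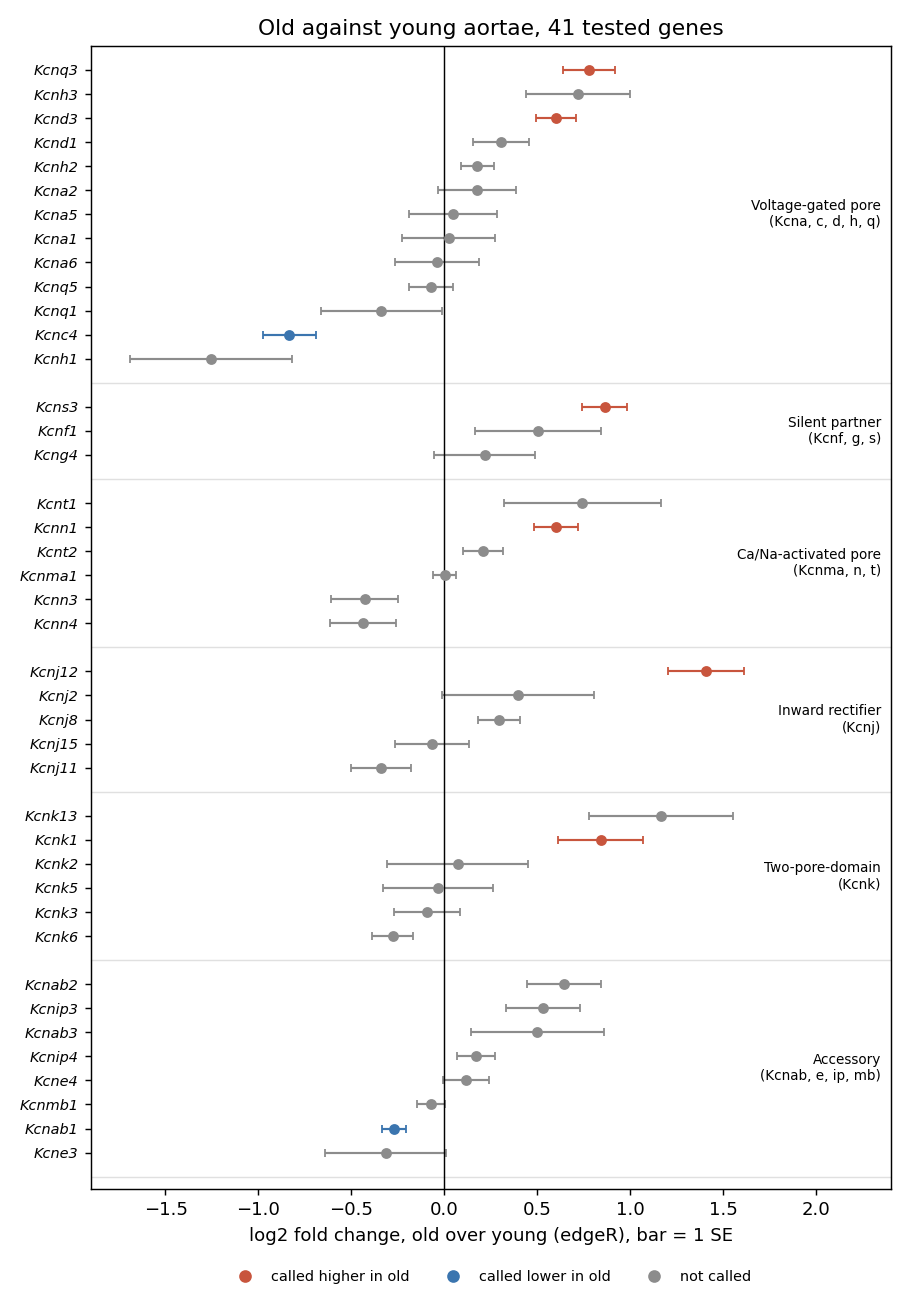
Log2 fold change of old over young for 41 tested potassium channel genes with 1 standard error as the bar, 5 mice per group, in red where called higher, blue where called lower and grey where not called. Called changes run from -0.83 for *Kcnc4* to 1.41 for *Kcnj12*, and each role but the accessory subunits holds at least 1 gene called higher.

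The 250 bases before 1 transcript start of 4 called genes are shown so that the letters can be read beside the changes of these genes. *Kcnj12* and *Kcns3* had the smallest p, *Kcnn1* rose too, and *Kcnab1* fell. The starts are those of RefSeq in GRCm38.p6, and the sequences are written 5′ to 3′ on the strand of the gene, in lower case. Capitals mark matches on either strand to any of 5 motifs. The motifs were the E-box CACGTG, the AP-1 site TGANTCA, the GC box GGGCGG, the TATA box TATAAA and the CArG box, for which serum response factor in smooth muscle is known. None of these motifs contains another. *Kcnj12* lies at chr11:61065554-61065803 on the plus strand, 1 of the 2 starts of *Kcns3* at chr12:11150374-11150623 on the minus strand, 1 of the 2 of *Kcnn1* at chr8:70863259-70863508 on the minus strand and 1 of the 3 of *Kcnab1* at chr3:65187853-65188102 on the plus strand.
Kcnj12: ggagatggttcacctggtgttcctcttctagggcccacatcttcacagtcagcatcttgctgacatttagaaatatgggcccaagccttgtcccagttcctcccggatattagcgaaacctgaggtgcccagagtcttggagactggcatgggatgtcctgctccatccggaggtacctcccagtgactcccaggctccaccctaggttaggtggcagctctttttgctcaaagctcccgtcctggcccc
Kcns3: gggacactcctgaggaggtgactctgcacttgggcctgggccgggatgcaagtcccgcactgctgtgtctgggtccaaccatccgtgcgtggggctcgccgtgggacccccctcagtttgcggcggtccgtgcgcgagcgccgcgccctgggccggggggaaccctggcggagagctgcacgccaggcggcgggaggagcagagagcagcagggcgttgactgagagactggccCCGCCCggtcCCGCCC
Kcnn1: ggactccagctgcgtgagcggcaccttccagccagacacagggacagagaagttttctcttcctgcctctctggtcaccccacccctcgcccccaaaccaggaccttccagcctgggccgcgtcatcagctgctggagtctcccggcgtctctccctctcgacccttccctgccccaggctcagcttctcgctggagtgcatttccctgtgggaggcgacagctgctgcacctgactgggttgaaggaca
Kcnab1: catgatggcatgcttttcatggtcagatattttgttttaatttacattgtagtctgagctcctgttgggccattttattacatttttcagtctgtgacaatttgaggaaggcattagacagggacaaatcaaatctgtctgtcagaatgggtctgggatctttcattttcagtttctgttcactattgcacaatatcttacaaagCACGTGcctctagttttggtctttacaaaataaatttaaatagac
In these stretches *Kcns3* held 2 GC boxes and *Kcnab1* an E-box, while *Kcnj12* and this start of *Kcnn1* held no match to any of the 5 motifs. *Kcnj12* had only the start shown, and the stretches of *Kcnj12*, *Kcns3* and *Kcnab1* lie inside the genes as annotated. The starts shown were picked by no fixed rule and with the matches known. Those not shown differed, with 1 GC box each before the other starts of *Kcns3* and *Kcnn1*, and 2 GC boxes before one and an E-box before the other of the remaining starts of *Kcnab1*. Windows that also take in the 50 bases after the start were counted for all genes. Over the 45 windows that 31 tested potassium channel genes had, 17 held a GC box, 6 an E-box, 4 an AP-1 site, 2 a TATA box and 0 a CArG box. The shares over all 32851 windows of the same length were 35.7% for the GC box, 7.15% for the E-box, 7.81% for the AP-1 site, 13.6% for the TATA box and 1.63% for the CArG box. A match describes letters and is not a site of binding.

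Inward rectifiers held the largest called change. *Kcnj12* (chr11:61022564-61071131) encodes a strong inward rectifier that stabilizes the resting voltage in heart and vessels. It had 80.8, 67.4, 42.9, 63.7 and 36.9 normalized counts in young mice 1 to 5 and 186, 133, 138, 178 and 135 in old mice 1 to 5. Every old mouse lay above every young one, with old mice 1 and 4 highest. The means were 58.3 ± 18.1 (SD, n = 5) and 154 ± 25.8, a log2 fold change of 1.41 with a standard error of 0.20 (edgeR, Benjamini-Hochberg adjusted p = 0.000829). Heart muscle also expresses *Kcnj12*, and the 5 cardiac markers summed to 222 to 532.3 normalized counts in young and 532.2 to 1577 in old aortae. Of these 5 markers 1 was called, the troponin gene *Tnnt2*, which rose from a mean of 241 to 798 (log2 fold change 1.74). The means of *Tnni3*, *Myh6*, *Nppa* and *Myl7* were lower in old than in young aortae. *Tnni3*, another troponin gene, had 42.2 and 25.1 and was not called (log2 fold change -0.74, edgeR, adjusted p = 0.0511). *Myh6*, a myosin of the mouse heart, had 4.09, 161, 4.99, 6.76 and 77.9 normalized counts in young mice 1 to 5 and 1.09 to 6.52 in the old mice, so that young mice 2 and 5 stood apart. *Nppa* and *Myl7* had counts in young mice 2 and 5 only, and none in the other 3 young or the 5 old libraries. The part of these markers in *Kcnj12* was not tested.

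The ATP-sensitive channel, which opens when the cell is short of energy, is built from *Kcnj8* or *Kcnj11* with the receptor subunits *Abcc9* or *Abcc8*. *Kcnj8* had 1486, 1253, 1261, 1041 and 1221 normalized counts in the young and 1191, 1492, 1871, 1500 and 1586 in the old mice. The groups overlapped through young mouse 1 and old mouse 1, and *Kcnj8* did not pass the test at a log2 fold change of 0.30 (edgeR, Benjamini-Hochberg adjusted p = 0.117). Without young mouse 1 the adjusted p was 0.046, and without old mouse 1 it was 0.0359. *Kcnj11* stood at 106 ± 13.6 and 83.4 ± 17.5 normalized counts and was not called either (log2 fold change -0.34, edgeR, adjusted p = 0.198). The ratio of *Kcnj8* to *Kcnj11*, a description with no test, was 10.3 to 13.2 in young and 14.4 to 30.0 in old mice without overlap, and old mouse 3 was highest. *Abcc9* averaged 11549 in young and 12467 in old mice (log2 fold change 0.12, edgeR, adjusted p = 0.288), and the ratio of *Kcnj8* to *Abcc9* was 0.109 ± 0.0207 and 0.122 ± 0.0158 with overlap. *Abcc8*, the receptor subunit best known from insulin-secreting cells, fell from 22.3 to 6.29 (log2 fold change -1.82, edgeR, adjusted p = 0.0122).

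The remaining tested inward rectifiers were not called. *Kcnj15* stood at 806.8 ± 210 normalized counts in young and at 765.7 ± 188 in old mice. *Kcnj2*, the closest relative of *Kcnj12* in function, had 24.7 ± 13.8 and 32.4 ± 15.3. Its values ran from 7.73 to 46.0 in young and from 19.6 to 55.6 in old mice, so that the spread within each group was wider than the difference between the means.

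Voltage-gated pores changed in both directions. *Kcnc4* (chr3:107438303-107459552) had 854, 997, 568.3, 717 and 690 normalized counts in young mice 1 to 5 and 382, 397, 514, 387 and 454 in old mice 1 to 5. Young mice 1 and 2 were highest, and no old mouse reached the lowest young one. Group means of *Kcnc4* were 765 ± 165 and 427 ± 57.0, and it fell with age (log2 fold change -0.83, standard error 0.14, edgeR, Benjamini-Hochberg adjusted p = 0.00282). Per kilobase it stood at 209 in the young and 116 in the old aortae.

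*Kcnd3* (chr3:105452330-105674002) forms a pore of the transient A-type current, which opens and inactivates quickly. It had 633, 763, 657, 665 and 955 normalized counts in young mice and 1281, 1094, 1027, 1119 and 1016 in old mice. Young mouse 5 came closest to the old mice, and the groups did not overlap. *Kcnd3* rose from 735 ± 133 to 1107.5 ± 106 (log2 fold change 0.60, standard error 0.11, edgeR, adjusted p = 0.00374). Per kilobase, *Kcnd3* stood at 76.6 and *Kcnc4* at 209 in young aortae. Their mean normalized counts there were close, at 735 and 765. The difference per kilobase thus came mostly from the exonic lengths used, 9.587 kilobases for *Kcnd3* and 3.667 for *Kcnc4*. In old aortae, the levels per kilobase were 116 for each, at mean counts of 1107.5 for *Kcnd3* and 427 for *Kcnc4*, a description without a test. *Kcnd1*, the other tested pore of the *Kcnd* subfamily, was at 74.2 ± 13.0 and 91.1 ± 9.87 normalized counts and was not called (log2 fold change 0.31, edgeR, adjusted p = 0.211).

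The *Kcnq* subfamily carries slow currents that do not inactivate. *Kcnq3* (chr15:65986387-66286642), best known as a partner pore in neurons, had 171, 226, 180.5, 177 and 178 normalized counts in young mice and 296, 434, 250.7, 323 and 287 in old mice. All old mice lay above young mouse 2, the highest of its group, and old mouse 2 stood highest. *Kcnq3* rose from 186.5 ± 22.6 to 318 ± 69.6 (log2 fold change 0.78, standard error 0.14, edgeR, adjusted p = 0.00346). Markers of neurons were low, at 25.2 to 59.3 normalized counts in young and 58.8 to 96.0 in old aortae for the list of 5. Of these, *Tubb3* was called higher, from a mean of 18.8 to 56.9 (log2 fold change 1.599). *Prph*, at 10.3 and 16.5, was not called. Under the filter, *Snap25* had means of 0.40 in young and 2.59 in old aortae. *Th* went the other way, from 2.45 to 0.44, and so did *Dbh*, from 2.03 to 0.40. The part of these markers in *Kcnq3* was not tested.

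*Kcnq5*, a pore of smooth muscle, had 227 ± 40.5 and 215 ± 8.91 normalized counts, and *Kcnq1*, the cardiac and epithelial member, had 38.9 ± 16.7 and 30.7 ± 11.5. Neither was called.

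Ether-a-go-go pores passed the filter with 3 genes and none was called. *Kcnh2* had 3581, 2915, 2776, 2697 and 2532 normalized counts in young mice and 3394, 2942, 3064, 3579.6 and 3335 in old mice. Young mouse 1 matched the highest old mouse, while the other 4 young mice lay below every old one. The log2 fold change was 0.18 (edgeR, Benjamini-Hochberg adjusted p = 0.223), and without young mouse 1 it was 0.26 with an adjusted p of 0.0207. *Kcnh1*, next to the threshold, had 20.4, 33.2, 57.8, 14.5 and 29.7 in young and 5.00, 19.6, 8.39, 22.2 and 9.72 in old mice. Old mice 2 and 4 lay above the lowest young mice, and the log2 fold change was -1.25 (edgeR, adjusted p = 0.0828), with an adjusted p of 0.0421 under DESeq2. *Kcnh3* had 10.2, 10.1, 4.99, 11.6 and 11.3 in young and 19.0, 14.2, 12.1, 19.3 and 14.6 in old mice. Every old mouse was above every young one, yet the difference did not pass the test (log2 fold change 0.72, edgeR, adjusted p = 0.118).

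Delayed rectifiers of the *Kcna* subfamily repolarize the membrane and were tested in 4 genes without a call. *Kcna5*, a pore of smooth muscle, averaged 207 ± 39.8 normalized counts in young mice and 213 ± 70.2 in old mice. *Kcna2* had 264 ± 90.1 and 297 ± 61.6, *Kcna6* had 104 ± 23.8 and 100.5 ± 30.9, and *Kcna1* had 77.0 ± 30.4 and 77.9 ± 17.3. In *Kcna6*, 39.6% of the exonic length is overlapped by a gene on the opposite strand, and since no source used here gives the strand setting of the counting, its reads cannot be assigned with certainty. Log2 fold changes of these 4 genes lay between -0.04 and 0.18, with edgeR adjusted p of 0.648 to 0.968, and a p that misses the threshold does not show that the levels were equal.

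Silent partners do not open as channels on their own and join other voltage-gated pores to change their gating. *Kcns3* (chr12:11090202-11151056) had the smallest p of all 43 genes. It had 222, 211, 179, 209 and 172 normalized counts in young mice 1 to 5 and 311, 283, 419, 389 and 393 in old mice 1 to 5. Old mouse 2, the lowest of its group, still lay above young mouse 1, the highest young one. Its mean rose from 198.7 ± 21.6 to 359.2 ± 58.7 (log2 fold change 0.86, standard error 0.12, edgeR, Benjamini-Hochberg adjusted p = 0.000638). *Kcnf1*, at 31.2 ± 6.07 and 44.0 ± 22.6, and *Kcng4*, at 28.1 ± 5.53 and 32.3 ± 11.6, were not called.

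**Figure D3:**
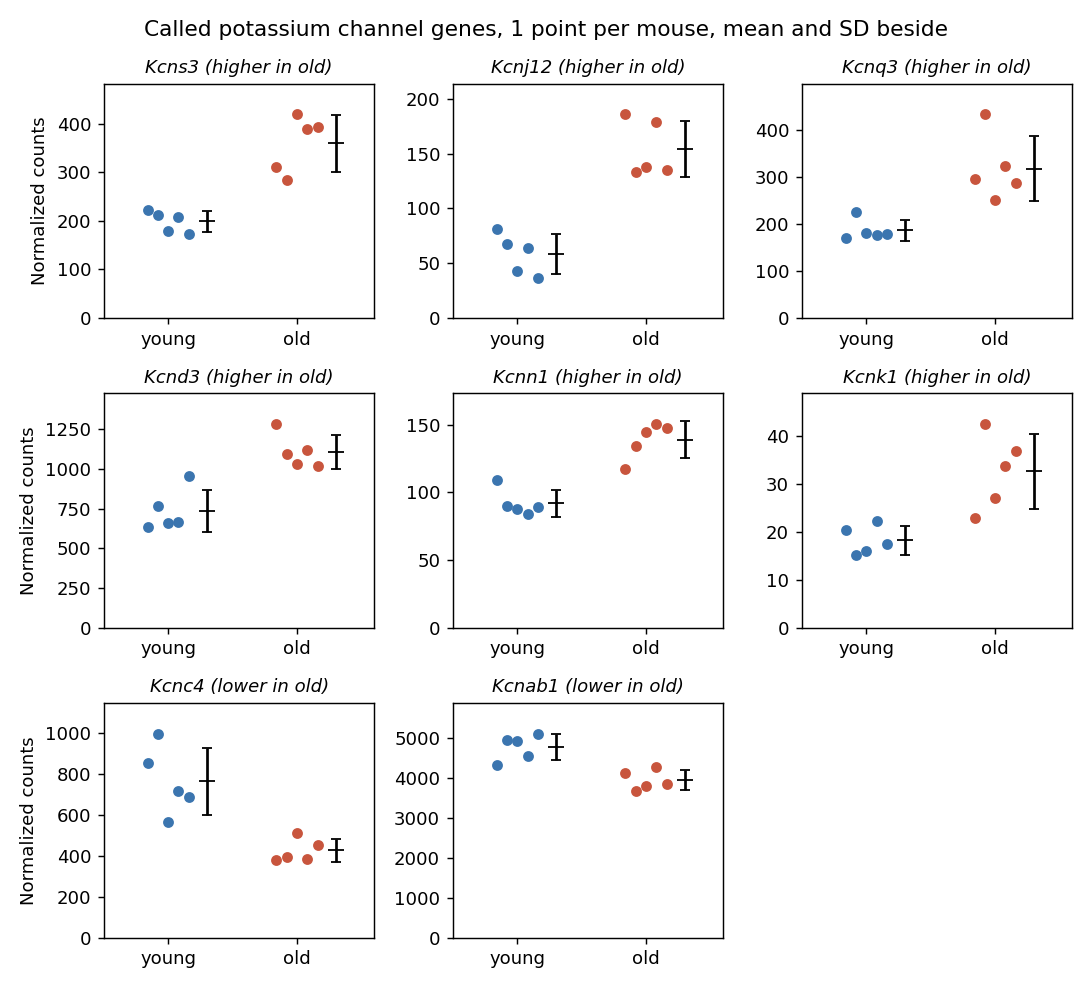
Normalized counts of 8 called potassium channel genes in each of 5 young and 5 old mice, with the mean and SD beside the points and each axis starting at 0. Young and old points are apart in all 8 panels, most narrowly for *Kcnk1* and *Kcnab1*.

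Among pores opened by calcium or sodium inside the cell, *Kcnn1* rose. *Kcnn1* (chr8:70842049-70863258) encodes a small-conductance calcium-activated pore, and it had 109, 89.6, 87.7, 84.0 and 89.1 normalized counts in young mice and 117, 134, 144, 150.4 and 148 in old mice. Young mouse 1 came closest to the old mice, and the groups did not overlap. The means were 92.0 ± 9.98 and 139 ± 13.7 (log2 fold change 0.60, standard error 0.12, edgeR, adjusted p = 0.00615). *Kcnn3* and *Kcnn4*, which serve endothelium-dependent dilation, had the other sign without passing the test. *Kcnn3* had 239.5 ± 58.0 and 177 ± 37.3 normalized counts (log2 fold change -0.43, edgeR, adjusted p = 0.146), and *Kcnn4* had 155 ± 27.6 and 114 ± 28.8 (log2 fold change -0.44, edgeR, adjusted p = 0.135). The 7 endothelial markers summed to 19226 to 32904 normalized counts in young and 9879 to 22849 in old aortae, all 7 with a negative log2 fold change and none called, and their part in *Kcnn3* and *Kcnn4* was not tested.

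The large-conductance calcium-activated channel opens with calcium sparks and opposes contraction, and neither *Kcnma1* nor *Kcnmb1* RNA differed detectably. Its pore *Kcnma1* had 2234, 2233, 2380, 2328 and 2446 normalized counts in young mice and 2467, 2099.8, 2148, 2519 and 2331 in old mice. Old mice held both the lowest and the highest of these values, and the log2 fold change was 0.0012 with a standard error of 0.06 (edgeR, Benjamini-Hochberg adjusted p = 0.994). Its accessory subunit *Kcnmb1* had 6038, 7038, 6897, 6986 and 7648 in young and 7035, 5632, 6886, 6883 and 6293 in old mice. Again the groups overlapped, with a log2 fold change of -0.07 and a standard error of 0.08 (edgeR, adjusted p = 0.601). The ratio of *Kcnmb1* to *Kcnma1* counts was 2.98 ± 0.184 in young and 2.83 ± 0.218 in old mice, and the groups overlapped. The sodium-activated pores *Kcnt2*, at 275 ± 34.8 and 316.5 ± 36.9, and *Kcnt1*, at 31.8 ± 7.64 and 53.3 ± 42.1, were not called. For *Kcnt1* old mouse 2 alone stood at 126, and without it the log2 fold change went from 0.74 to 0.14.

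**Figure D4:**
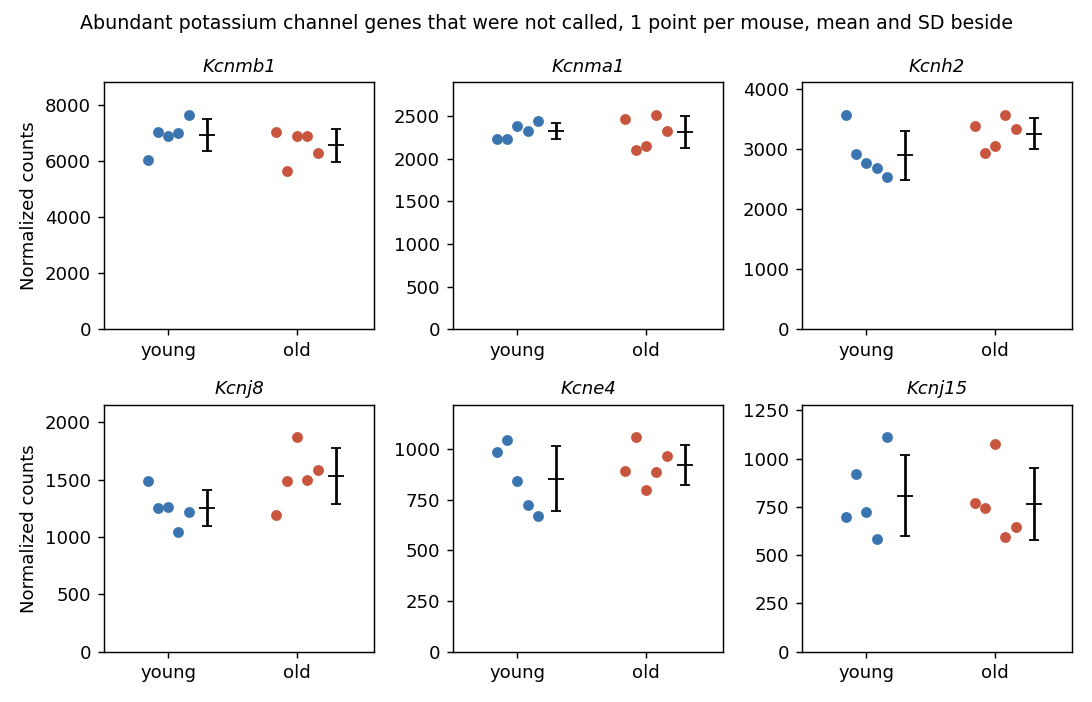
Normalized counts of 6 abundant potassium channel genes that were not called, in 5 young and 5 old mice, with the mean and SD beside the points and each axis starting at 0. Young and old mice overlap in every panel, and *Kcnmb1*, with 5632 to 7648 normalized counts, is the highest of them.

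Two-pore-domain channels carry the background current at rest, and 1 of the 6 tested was called. *Kcnk1* (chr8:125995170-126030685), a weak inward rectifier of this class, had 20.4, 15.1, 15.95, 22.2 and 17.4 normalized counts in young mice and 22.98, 42.5, 27.0, 33.7 and 36.9 in old mice. Old mouse 1 lay just above young mouse 4, and the groups did not overlap. *Kcnk1* rose from 18.2 ± 3.02 to 32.6 ± 7.77 (log2 fold change 0.84, standard error 0.23, edgeR, adjusted p = 0.0311). At this low level the call was lost without a low-count filter (adjusted p = 0.067) and without any 1 of young mice 2, 3 and 5 or old mice 2, 4 and 5, where the adjusted p ran from 0.0609 to 0.0816.

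*Kcnk13*, a halothane-inhibited pore known from microglia, stood next to the threshold. It had 20.4, 7.04, 11.96, 11.6 and 3.07 normalized counts in young mice and 24.0, 34.9, 28.0, 20.2 and 14.6 in old mice. Young mouse 1 lay within the old range, and the log2 fold change was 1.16 (edgeR, adjusted p = 0.0701). Its adjusted p was 0.0185 without young mouse 1 and 0.0426 under DESeq2. The 6 macrophage markers summed to 6636 to 8936 normalized counts in young and 8804 to 18141 in old aortae, with 3 of 6 called higher, and their part in *Kcnk13* was not tested.

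The other 4 two-pore-domain pores were not called. *Kcnk6* had 287 ± 42.0 and 236 ± 22.6 normalized counts (log2 fold change -0.28, edgeR, adjusted p = 0.122), and an adjusted p of 0.0497 without young mouse 2. *Kcnk3*, an acid-sensitive pore, had 236 ± 59.5 and 220.0 ± 43.4. *Kcnk5* had 34.5 ± 14.5 and 33.5 ± 9.34, and the mechanosensitive *Kcnk2* had 16.1 ± 9.10 and 16.8 ± 3.68. A gene on the opposite strand overlaps 12.2% of the exonic length of *Kcnk2*, so that its counts are uncertain.

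Among accessory subunits 1 of 8 was called. *Kcnab1* (chr3:65109384-65378223) had 4328, 4963, 4928, 4551 and 5110 normalized counts in young mice and 4116, 3674, 3795, 4281 and 3847 in old mice. The gap was narrow, since old mouse 4 lay just below young mouse 1, but the groups did not overlap. *Kcnab1* fell from 4776 ± 324 to 3943 ± 249 (log2 fold change -0.27, standard error 0.06, edgeR, adjusted p = 0.0164), the smallest called change among the 43 genes.

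Its relative *Kcnab2* was the gene closest to the threshold from the other side. It had 59.3, 45.3, 37.9, 36.7 and 46.1 normalized counts in young mice and 69.0, 67.6, 96.0, 65.6 and 51.5 in old mice. Old mouse 5 lay below young mouse 1, so that the groups overlapped (log2 fold change 0.64, edgeR, adjusted p = 0.0521). The adjusted p was 0.0227 without young mouse 1, 0.0389 without old mouse 5, 0.0278 under DESeq2 and 0.0482 with upper-quartile scaling. *Kcnab3* was at 8.41 ± 2.86 and 11.9 ± 4.84 and was not called. Per kilobase, *Kcnab1* stood at 507 and *Kcnab2* at 10.3 over the 10 mice.

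The calcium-binding subunits of A-type pores were *Kcnip3*, at 92.1 ± 20.1 and 132.5 ± 35.9 normalized counts (log2 fold change 0.53, edgeR, adjusted p = 0.103), and *Kcnip4*, at 174 ± 6.58 and 195 ± 24.7 (log2 fold change 0.17, adjusted p = 0.322 by edgeR). Neither was called, and both had the sign of *Kcnd3*. *Kcne4* had 986.5, 1045, 840.5, 726 and 670.1 in young and 890.4, 1060, 799, 887 and 966 in old mice. Its groups overlapped over most of their range, and the log2 fold change was 0.12 (edgeR, adjusted p = 0.593). *Kcne3* was at 24.4 ± 7.42 and 19.6 ± 9.78 and was not called.

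Outside the naming rule, 47 genes of potassium channel partners, calcium entry and release, chloride and cation channels, and pumps and carriers were read from the same test. Of these, 37 were tested, 5 rose and 4 fell, so that 9 of 37 were called, against 11.5% of all tested genes called in either direction, 6.48% higher and 4.99% lower. This list, too, was chosen with results of these data known. Among partners of potassium channels, *Lrrc55*, an accessory subunit of the large-conductance channel, rose from 24.5 ± 5.98 to 93.2 ± 36.9 normalized counts (log2 fold change 1.93, edgeR, adjusted p = 0.000829). *Dpp10*, a partner of A-type pores, rose from 6.07 ± 5.77 to 34.8 ± 19.9 with overlapping groups (log2 fold change 2.51, edgeR, adjusted p = 0.0160). *Cacna1h*, a low-voltage-activated calcium channel, rose from 223 ± 76.7 to 458 ± 31.0, and its relative *Cacna1g* fell from 678 ± 118 to 445 ± 76.4 with overlap, at log2 fold changes of 1.05 and -0.60 (edgeR, adjusted p = 0.00583 and 0.0174). *Cacna1c*, the main calcium entry channel of arterial muscle, was not called (log2 fold change -0.05, edgeR, adjusted p = 0.816). *Ryr2*, the calcium release channel that makes sparks, and *Hcn2*, a hyperpolarization-activated channel, rose by log2 fold changes of 0.23 and 0.66 (edgeR, adjusted p = 0.0384 and 0.0346). The sodium pump subunit *Atp1b2* and the sodium-calcium exchanger *Slc8a1* had log2 fold changes of -0.31 and -0.28 (edgeR, adjusted p = 0.0252 and 0.0380). Leaving out any 1 mouse ended the call of *Ryr2* or *Hcn2*, and both were lost without young mouse 5, old mouse 4 or old mouse 5, which left 3 called higher. *Slc8a1* was not called without any 1 of young mice 3, 4 and 5 or old mice 2, 3 and 5. *Atp1b2* was not called without any 1 of young mice 2 and 4 or old mice 3 and 5, so that 2 were left called lower without young mouse 4, old mouse 3 or old mouse 5.

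*Kcns3*, *Kcnj12*, *Kcnc4*, *Kcnq3*, *Kcnd3* and *Kcnn1* were called under all 19 alternatives run, 10 of which left out 1 mouse each. Without young mouse 1, the number called higher went from 6 to 10, with *Kcnab2*, *Kcnh2*, *Kcnj8* and *Kcnk13* added. Leaving out this mouse raised the calls over all tested genes as well, from 1676 of 14614 to 2367 of 14744. Young mouse 1 also had the highest summed level of 5 adipocyte and of 6 Schwann cell markers. The adipocyte markers summed to 2109 to 8043 normalized counts in young and 1224 to 3178 in old aortae, and the Schwann cell markers to 663 to 1501 and 872 to 1219. None of these markers was called, the highest value of either list was that of young mouse 1, and their part in the calls was not tested.

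**Figure D5:**
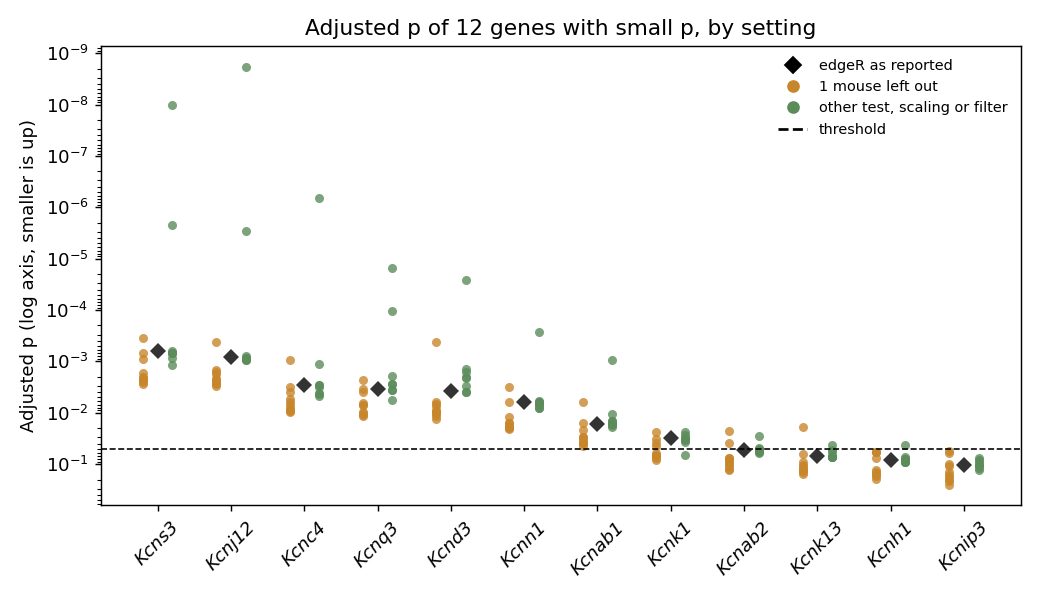
Adjusted p of 12 potassium channel genes with small p, on a log axis with smaller values upwards, for edgeR as reported (black), with 1 mouse left out (orange) and with another test, scaling or filter (green), and the threshold of 0.05 as a dashed line. *Kcns3* to *Kcnn1* stay above the line throughout, and points of *Kcnk1* fall on both sides of it. The replicate block, under which *Kcnab1* and *Kcnk1* were not called, is not drawn.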

How the data were processed

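Poly(A) RNA of 10 aortae, 1 library per mouse and 5 mice per age, was sequenced. Per the labels and the study's methods, the authors trimmed reads with fastp 0.20.0, aligned them to GRCm38 with STAR 2.7.0f and counted them per gene with featureCounts (Subread 1.6.4). They deposited these values as raw counts per gene symbol, without normalization. The libraries are described as stranded, but the strand setting of the counting and the treatment of reads with several alignments are not given in the sources used here. The depth of 19640401 to 22886153 counts per library puts the upper limit for a gene without a count at 3 counts per library.

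Samples were grouped by the age in their labels. Counts were filtered with filterByExpr and tested with edgeR 4.0.16 (quasi-likelihood F test, robust, TMM, no covariate) under R 4.3.3 over 14614 genes, with Benjamini-Hochberg adjustment and a threshold of 0.05. Levels are counts over size factors of DESeq2 1.42.0, per kilobase of exon where genes are compared (GENCODE M21 on GRCm38, where the study used M22). Every tested potassium channel gene is named, except that 4 of the 93 genes, 2 of them tested, are counted in totals but not reported singly here. Values of each mouse are given for called genes, genes without overlap, the 8 highest per kilobase and the 3 next to the threshold. The genes and lists were chosen with earlier results of these data known. Start regions are from RefSeq, matched by symbol for 68 of the 93 genes, 31 of the 43 tested and 7 of the 9 called. Proteins were not used here.

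Alternatives were DESeq2, limma-voom (limma 3.58.1), other scalings and filters, a threshold of 0.01, the replicate number as a block, leaving out each mouse and, chosen after seeing the data, a correction for GC content and length. The test was tested on simulated data.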

Additional observations from a re-analysis of the deposited data

Results flagged for a closer look

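In 82 groups of 5 mice, 2 for each of 41 tested potassium channel genes, the highest or lowest mouse was compared with the other 4, and in 7 groups its gap to the nearest one was over 0.71 of the whole range. For 5 independent values from a normal distribution, chance gives this in about 1 in 20 groups. The values here are counts and the groups share the same mice, so that this rate is only a rough guide. *Kcna2* had 422 normalized counts in young mouse 1, against 201 to 249 in the other young mice. *Kcnn1* had 109 in young mouse 1, against 84.0 to 89.6. *Kcnq3* had 226 in young mouse 2, against 171 to 180.5. *Kcnh3* had 4.99 in young mouse 3, below 10.1 to 11.6. Among the old mice, *Kcnt1* had 126 in old mouse 2, against 22.4 to 49.0, and *Kcnk6* had 275 in old mouse 4, against 219 to 235. *Kcnk5* had 17.5 in old mouse 5, below 35.4 to 42.0 in the other old mice. Old mouse 2 is the library with the highest mitochondrial share, and its part in the *Kcnt1* value was not tested.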

How the results depend on the processing

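Of the 9 called potassium channel genes, 6 were called under each of the 19 alternatives, and none of the 9 changed direction. The number called higher was 5 without a low-count filter, 7 with upper-quartile scaling and 8 under DESeq2, and the number called lower was 4 under DESeq2 and 1 at a threshold of 0.01. Leaving out 1 mouse gave 5 to 10 called higher and 2 to 3 called lower, and among the ion transport partners 3 to 4 higher and 2 to 5 lower. Partners called higher were 3 without a low-count filter. By other definitions of expression, 37 to 51 potassium channel genes were expressed. Same-numbered young and old mice correlated at -0.30 to 0.13, and 2 of 5 pairs matched best. The labels do not say that the numbers pair the mice, and so few values cannot exclude it. With the replicate block 5 potassium channel genes were called higher and 2 lower, *Kcnab1* and *Kcnk1* were not called (adjusted p = 0.0686 and 0.0846), and 3 partners were called higher.

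Directions reversed for 9 uncalled genes. The log2 fold change of *Kcna5* was -0.0326 with limma-voom. That of *Kcnma1* was -0.0026 without a filter, -0.0036 with DESeq2 size factors, -0.0066 under DESeq2 and -0.0015 with limma-voom and with the block. Leaving out 1 mouse gave -0.16 to 0.0066 for *Kcnq5*, -0.22 to 0.0424 for *Kcnk3*, -0.22 to 0.0726 for *Kcnj15*, -0.0634 to 0.23 for *Kcna5*, -0.18 to 0.41 for *Kcnk2*, -0.17 to 0.12 for *Kcna6*, -0.16 to 0.24 for *Kcnk5*, -0.11 to 0.26 for *Kcna1* and -0.0315 to 0.0292 for *Kcnma1*. The cause of these changes was not tested. Depth limits the genes under the filter.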

Other observations

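Of the genes under the low-count filter, *Kcnj13*, *Kcnmb4* and *Kcnj3* have 49.1%, 31.5% and 31.1% of their exonic length overlapped by genes on the opposite strand, and *Kcnk4* has 13.1% overlapped by a gene on its own strand. In *Kcnj14*, 30.8% of the 50-base windows occur in another gene. The counts of these genes are uncertain. None of the 9 called genes has over 10% of either kind.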
